A study of Homo sapiens with 8 samples.

Results

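The zinc finger gene clusters of human chromosome 19 were followed through long culture of HUES64 cells, an established human embryonic stem cell line, that lack both DNMT3A and DNMT3B. They were taken as 4 intervals of genome build hg19: the first cluster at chr19:19800000-24500000, the second at chr19:36500000-38300000, the third at chr19:44300000-45000000 and the fourth at chr19:52000000-58850000. The imprinted windows chr19:54040000-54060000 and chr19:57340000-57360000, which hold 4 tiles, were left out. CpGs with 5 or more reads in all 8 libraries were joined in tiles of 1000 bases with 3 or more such CpGs, which gave 1202 tiles in the clusters (177, 205, 25 and 795 in the order above) of 105631 tiles on all autosomes. The intervals were chosen by position and not by methylation. They were set against the rest of chromosome 19, with 7035 tiles. Of the 54 RefSeq promoters that could be placed in them, 32 belong to genes with a zinc finger symbol.

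Methylation was measured by reduced representation bisulfite sequencing (RRBS), in which fragments rich in CpGs are bisulfite converted and sequenced. There is 1 library each for passages 6, 7, 8, 11, 13, 17, 27 and 28. All 8 carry the genotype label DMNT3A/3B knockout, as the labels spell it, so by the labels they differ in passage alone. Unedited HUES64 cells were not analysed here. Whether the passages follow 1 culture or 1 clone is not given by the labels. The p-values therefore weigh a trend against the scatter of single libraries, part of which may be technical.

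Genes for C2H2 zinc finger proteins stand on chromosome 19 in long tandem arrays that arose by gene duplication. Most of them encode KRAB zinc finger proteins, repressors that bind DNA through a row of finger repeats, often in transposable elements, and recruit the co-repressor TRIM28 (KAP1). In embryonic stem cells the bodies of many of these genes carry the repressive histone mark H3K9me3 together with DNA methylation, while many of their promoters are CpG islands. DNMT3A and DNMT3B place methylation on unmethylated DNA, and DNMT1 copies it to the new strand after replication.

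The promoters below show the patterns found at those starts of genes in the clusters that could be placed. They are RefSeq sequences of assembly GRCh38.p14, from 250 bases before to 50 after the gene start, on the gene's strand. Capitals mark the CpGs that had 5 or more reads in every library and therefore carry the measured level. Their hg19 windows come from a match of CpG spacing and not from an annotation. ZNF540 (chr19:38042026-38042325, plus strand) and ZNF835 (chr19:57183076-57183375, minus strand) are shown as methylated promoters that stayed so, ZNF528-AS1 (chr19:52900961-52901260, minus strand) as one that lost methylation, ZNF880 (chr19:52872926-52873225, plus strand) as one of intermediate level, and ZNF570 (chr19:37960008-37960307, plus strand) as one of the many unmethylated promoters.
ZNF540: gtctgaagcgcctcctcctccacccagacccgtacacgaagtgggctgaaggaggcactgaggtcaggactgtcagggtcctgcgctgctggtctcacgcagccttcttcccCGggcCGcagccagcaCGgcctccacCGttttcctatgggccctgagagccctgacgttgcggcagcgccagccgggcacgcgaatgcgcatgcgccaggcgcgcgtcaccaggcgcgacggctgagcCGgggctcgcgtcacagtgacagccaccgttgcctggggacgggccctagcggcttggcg
ZNF835: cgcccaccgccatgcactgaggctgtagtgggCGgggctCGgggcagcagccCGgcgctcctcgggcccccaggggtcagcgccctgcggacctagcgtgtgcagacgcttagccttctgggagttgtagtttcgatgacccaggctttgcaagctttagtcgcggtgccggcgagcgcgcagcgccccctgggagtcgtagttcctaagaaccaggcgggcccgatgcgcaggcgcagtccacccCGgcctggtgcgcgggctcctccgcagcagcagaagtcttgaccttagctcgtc
ZNF528-AS1: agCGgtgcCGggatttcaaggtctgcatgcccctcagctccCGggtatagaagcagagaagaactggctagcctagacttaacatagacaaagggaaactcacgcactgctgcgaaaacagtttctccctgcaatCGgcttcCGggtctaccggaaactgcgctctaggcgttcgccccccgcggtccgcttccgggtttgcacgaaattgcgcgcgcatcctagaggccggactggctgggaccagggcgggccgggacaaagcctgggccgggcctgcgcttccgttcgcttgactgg
ZNF880: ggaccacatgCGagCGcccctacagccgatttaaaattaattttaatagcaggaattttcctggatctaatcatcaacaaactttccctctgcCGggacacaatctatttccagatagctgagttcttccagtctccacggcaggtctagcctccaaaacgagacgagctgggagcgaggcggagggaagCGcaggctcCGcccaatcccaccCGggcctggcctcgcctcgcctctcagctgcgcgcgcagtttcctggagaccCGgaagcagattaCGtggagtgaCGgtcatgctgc
ZNF570: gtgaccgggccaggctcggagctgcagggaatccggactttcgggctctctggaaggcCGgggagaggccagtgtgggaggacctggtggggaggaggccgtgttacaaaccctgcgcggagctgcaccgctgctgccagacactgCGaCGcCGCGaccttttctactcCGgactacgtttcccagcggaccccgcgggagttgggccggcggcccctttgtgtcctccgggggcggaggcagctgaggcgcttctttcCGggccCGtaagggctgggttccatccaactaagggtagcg

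Depth in the 4 clusters together was close to that of the rest of the chromosome. The fewest reads over their CpGs, 120016, were at passage 11 and the most, 261563, at passage 6. Median reads per tile lay between 57 and 126 in the clusters and between 61 and 133 in the rest of chromosome 19. Median reads per CpG lay between 10 and 23 in the clusters and between 11 and 24 in the rest. A tile of the clusters held a median of 5 measured CpGs and 11 CpGs listed in any library, as did a tile of the rest. The clusters differed in this: over all libraries a tile had a median of 466 reads in the first cluster, 1031 in the second, 433 in the third and 596 in the fourth, against 630 in the rest. Tiles of the second cluster held a median of 8 measured and 18 listed CpGs. The level of a tile is the share of methylated reads over its CpGs, its start level is the mean of passages 6 to 8 and its late level the mean of passages 27 and 28.

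The clusters kept most of their methylation while the rest of chromosome 19 lost more. The mean level of the clusters' tiles, in passage order, was 53.8, 54.0, 54.2, 52.5, 52.4, 51.3, 47.9 and 47.3%. Its slope on passage was -0.307 ± 0.0162 points (SE over 8 libraries; Pearson r = -0.992 with an exact permutation p of 0.000248, adjusted p = 0.000496, and Spearman rho = -0.905 with an exact permutation p of 0.00456). The rest of chromosome 19 stood at 49.7, 49.4, 48.8, 46.1, 45.7, 43.5, 37.1 and 35.9% in the same order, which is -0.618 ± 0.0174 points with each passage (SE over 8 libraries; exact permutation p = 2.48e-05, the smallest that 8 libraries allow). The late mean was 47.6% in the clusters, against a start mean of 54.0% ± 0.176 (SD, n = 3), so that 88.2% of the start level was left. In the rest of the chromosome 74.0% of it was left. Without passages 27 and 28, r was -0.957 in the clusters (exact permutation p = 0.0125, n = 6).

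The clusters differed among themselves in level and in loss. The second cluster was the most methylated, with a late mean of 66.0%, against a start mean of 69.7% ± 0.335 (SD, n = 3). It was followed by the first cluster, with 62.6% late and 66.8% ± 0.337 at the start (SD, n = 3). The fourth cluster had a late mean of 39.9%, against 47.5% ± 0.179 at the start (SD, n = 3), and the third one of 38.4%, against 40.8% ± 0.687 (SD, n = 3). Slopes were -0.1996 ± 0.0202 in the first cluster, -0.179 ± 0.0185 in the second, -0.110 ± 0.0295 in the third and -0.370 ± 0.0163 points per passage in the fourth (SE over 8 libraries each; adjusted exact permutation p between 0.000496 and 0.0188). Without passages 27 and 28 the slope of the third cluster was -0.00407 points per passage (exact permutation p = 0.946, n = 6), so its fall rests on those libraries. The exact permutation p without them was 0.0514 in the first cluster and 0.0528 in the second (n = 6 each).

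**Figure D1:**
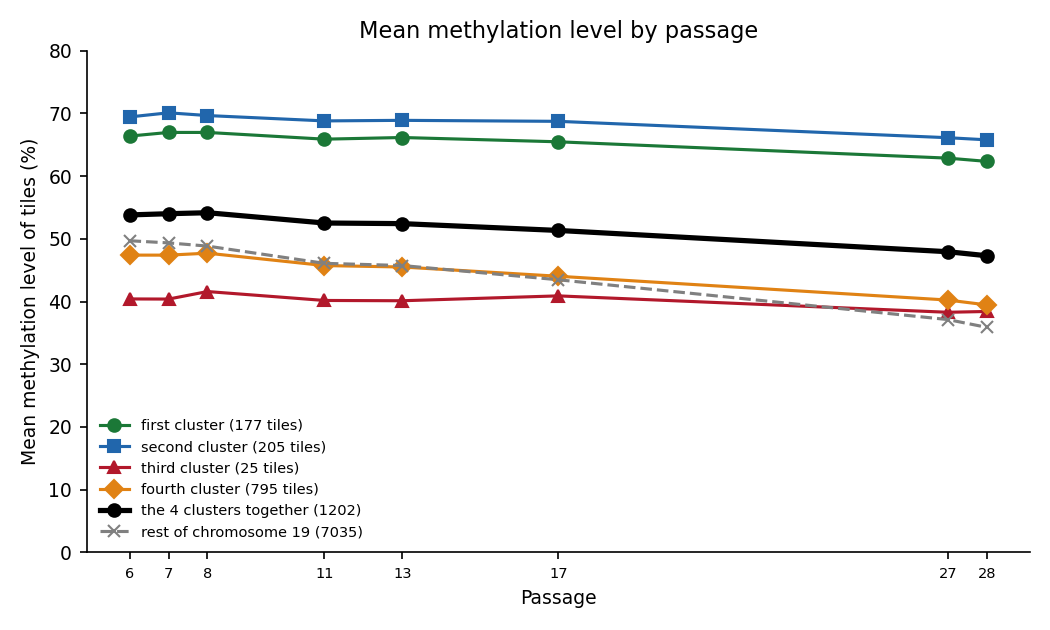
Mean methylation level (%) of the tiles of each cluster, of the 4 clusters together and of the rest of chromosome 19, by passage; each point is 1 library, so there are no error bars. The rest of the chromosome falls to 35.9% at passage 28 while the 4 clusters together stay at 47.3%.

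Since the clusters start higher than the rest of the chromosome, they were compared at equal start level, in 10 bins of 10 points, with the rest weighted to the clusters' tiles. At equal start the clusters moved ahead of the rest with passage. Their level minus that of the rest was, in passage order, -0.299, 0.114, 0.668, 1.59, 1.85, 2.71, 5.12 and 5.77 points. This difference had a slope of 0.256 ± 0.0102 points per passage (SE over 8 libraries; Pearson r = 0.9953 with an exact permutation p of 2.48e-05, and Spearman rho = 1 with one of 4.96e-05, both the smallest that 8 libraries allow). The late mean was 47.6% in the clusters, against 42.2% in the rest at equal start, and their start means were 54.0% and 53.8%. Without passages 27 and 28, r was 0.982 (exact permutation p = 0.00139, n = 6). The start bins are set on passages 6 to 8, so the matching itself holds the mean difference of those libraries near 0. Over passages 11 to 28 alone the slope of the difference was 0.242 points per passage (exact permutation p = 0.00833). The other autosomes lost less than the rest of chromosome 19, and with their tiles in its place the slope of the difference was 0.155 points per passage (exact permutation p = 2.48e-05, n = 8).

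Each of the 4 clusters moved ahead of the rest of the chromosome. The slope of the difference at equal start was 0.471 ± 0.0134 points per passage in the first cluster, 0.355 ± 0.0159 in the second, 0.301 ± 0.0243 in the third and 0.180 ± 0.0115 in the fourth (SE over 8 libraries each; adjusted exact permutation p of 4.96e-05 or less in each). The late level of the first cluster was 62.6%, against 52.8% in the rest at equal start, and that of the second was 66.0%, against 58.1%. The third cluster stood at 38.4%, against 31.7%, and the fourth at 39.9%, against 36.0%. All 4 use the same reference tiles. At equal start the first cluster kept more than the fourth, by 0.249 ± 0.0121 points per passage, and so did the second, by 0.194 ± 0.0114 (SE over 8 libraries; adjusted exact permutation p of 0.000223 and 0.00026 over 3 pairs). The first minus the second gave 0.0371 ± 0.03004 points per passage (SE over 8 libraries; adjusted exact permutation p = 0.259), which does not show that they lose alike. These sizes depend on depth and on the comparison. With 10 reads in every library the difference from the rest was 0.224 points per passage in the first cluster on 17 tiles, 0.364 in the second on 103 and 0.137 in the fourth on 215 (adjusted exact permutation p of 0.00271 or less, n = 8). In the third, with 4 tiles left, it was 0.0356 (adjusted exact permutation p = 0.516, n = 8). The second cluster minus the fourth was then 0.0957 points per passage (adjusted exact permutation p = 0.0788, n = 8), and the first minus the fourth 0.155 (adjusted exact permutation p = 0.0214, n = 8). Against the other autosomes the 4 clusters gave 0.345, 0.261, 0.221 and 0.0838 points per passage in their order on the chromosome, with an adjusted exact permutation p of 4.96e-05 or less (n = 8).

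**Figure D2:**
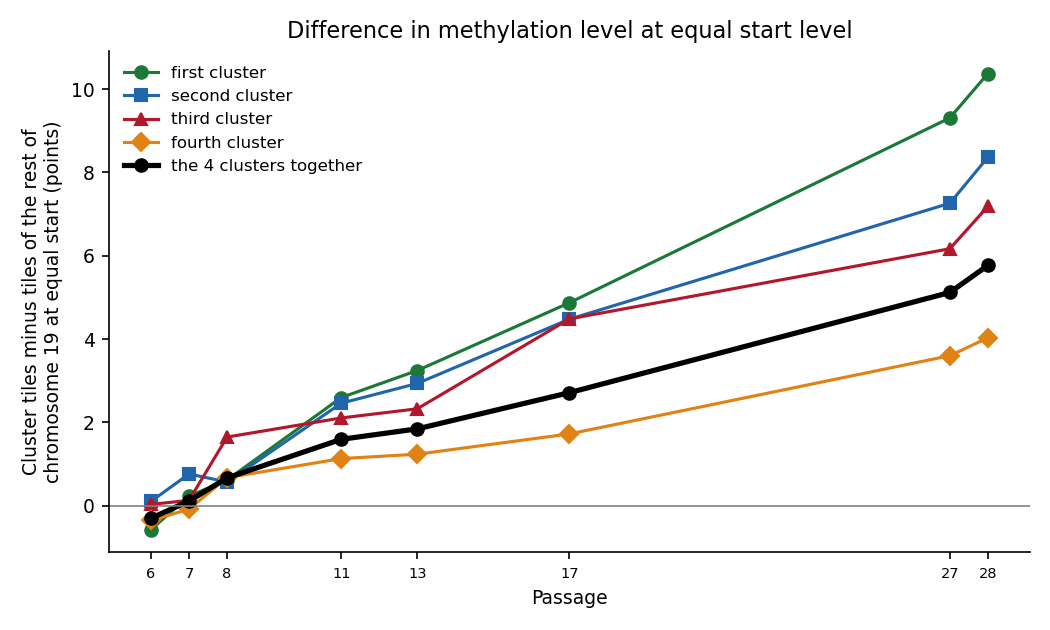
Level of the clusters' tiles minus that of tiles of the rest of chromosome 19 in the same start bins (points), by passage; each point is 1 library. All 5 lines lie within 1.65 points of 0 at passages 6 to 8, which set the start bins. They are highest at passages 27 and 28, where the first cluster reaches 10.4 points and the fourth 4.03.

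By slope, the difference was widest for tiles of intermediate level at the start. The 191 tiles of the clusters that started at 60 to 80% had a late mean of 63.6%, against 49.8% for tiles of the rest at equal start, a slope of 0.664 ± 0.0260 points per passage (SE over 8 libraries). Tiles that started at 40 to 60% ended at 35.3%, against 24.2% in the rest (0.569 ± 0.0240 points per passage, SE over 8 libraries). The 208 tiles starting at 80 to 90% ended at 74.1%, against 68.7%, and the 287 tiles starting at 90% or more ended at 89.7%, against 84.1%. Their slopes were 0.263 ± 0.0289 and 0.223 ± 0.0204 points per passage (SE over 8 libraries each). In these 4 classes the adjusted exact permutation p was 0.000278 or less. Tiles starting at 20 to 40% gave 0.211 ± 0.0555 points per passage (SE over 8 libraries; adjusted exact permutation p = 0.00845), and those starting at 10 to 20% gave 0.114 ± 0.0426 (SE over 8 libraries; adjusted exact permutation p = 0.0378). Without the library of passage 7, 8, 27 or 28 the class of 10 to 20% missed the threshold, with an adjusted exact permutation p between 0.0706 and 0.434. The 343 tiles under 10% had a late mean of 0.687%, against 0.554% in the rest, and a start mean of 1.03%, against 1.25%. Their difference had a slope of 0.0172 points per passage (adjusted exact permutation p = 0.000174), but lay between -0.359 and 0.231 points in all libraries, and missed the threshold without passage 28 (adjusted exact permutation p = 0.0539).

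**Figure D3:**
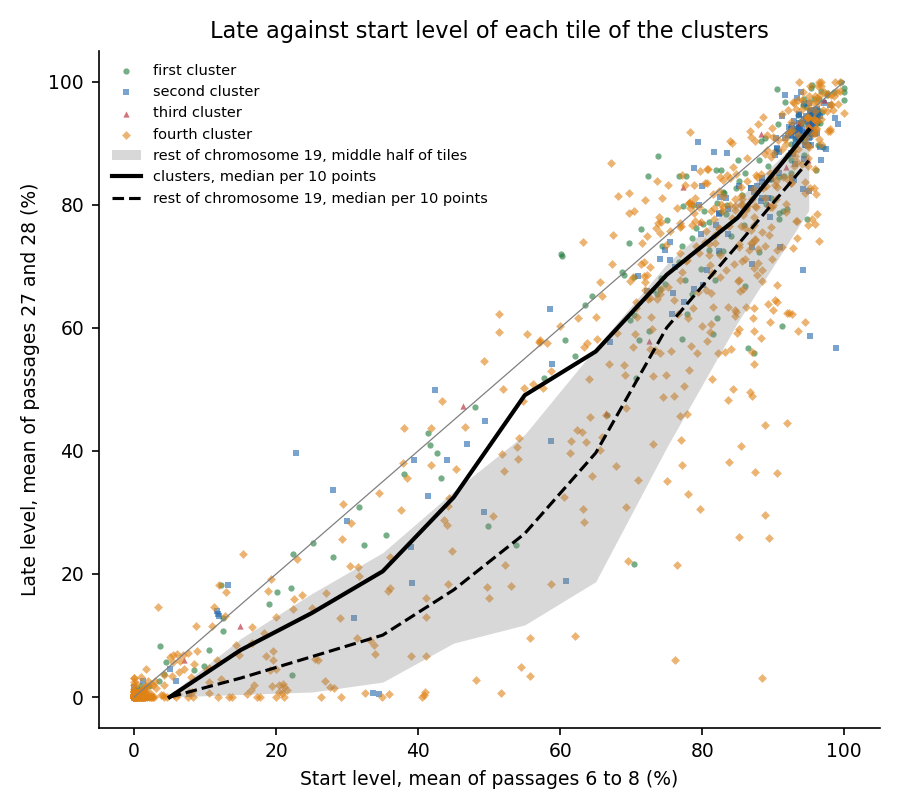
Late level (mean of passages 27 and 28, %) against start level (mean of passages 6 to 8, %) for each of the 1202 tiles of the clusters, with the median of the clusters and the median and interquartile range of the rest of chromosome 19 per 10 points of start level. The median of the clusters lies above that of the rest from the second bin on, as in the bin of 60 to 70%, with 56.1% in the clusters and 39.7% in the rest.

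Highly methylated tiles stayed so more often in the clusters than in the rest of the chromosome, in shares that are not matched for start level. Of 407 tiles in the clusters that reached 80% in all of passages 6 to 8, 276 also reached it in both late libraries. That is 67.8% of them (Wilson 95% interval 63.1 to 72.2%, counting error only). In the rest of chromosome 19 the share was 47.3% (44.9 to 49.7%), or 794 of 1679 tiles. It was 56 of 76 tiles in the first cluster (73.7%), 106 of 122 in the second (86.9%), 6 of 7 in the third (85.7%) and 108 of 202 in the fourth (53.5%). This order depends on the level asked for: at 90% in place of 80% the shares were 66.7, 62.2, 50 and 60.2% for the 4 clusters in the same order, and 32.6% in the rest. The shares of the second cluster, and of the 4 clusters together, include the runs of highly methylated tiles described above. They were not computed without them. Of the tiles whose start mean was 80% or more, 55 of 495 in the clusters fell by 20 points or more (11.1%), against 517 of 2237 in the rest (23.1%). The share was 16.8% on the other autosomes and 17.6% in the fourth cluster. A late level of 80% or more was kept by 67.7% of these tiles in the clusters and 54.3% in the fourth. It was kept by 47.7% in the rest and 57.9% on the other autosomes. By these shares the fourth cluster was not ahead of the other autosomes. The clusters' tiles with a start mean of 80% or more started higher, at a mean of 90.6%, against 88.9% in the rest. Of tiles starting at 90% or more, 88.9% had a late level of 80% or more in the clusters, against 72.0% in the rest. Of those starting at 80 to 90%, the shares were 38.5% and 27.8%. A fall of 50 points or more was seen in 6 of the 495 tiles of the clusters (1.21%), against 89 of 2237 in the rest (3.98%) and 2.69% on the other autosomes. All 6 are in the fourth cluster, which holds 267 of the 495 tiles.

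Fewer tiles of the clusters passed the test for loss than elsewhere. Calls required an adjusted p under 0.05 and at least 10 points of fitted change between passages 6 and 28. A tile was tested with 10 or more methylated and 10 or more unmethylated reads over all libraries, which 920 of the 1202 tiles had. Of these, 185 lost methylation (20.1%), against 2355 of 5442 in the rest of chromosome 19 (43.3%) and 34% of all 78387 autosomal tiles tested. Weighted to the start levels of the clusters, the share in the rest was 40.1%. The calls numbered 11 of 156 in the first cluster (7.05%), 12 of 174 in the second (6.90%), 1 of 15 in the third (6.67%) and 161 of 575 in the fourth (28.0%). The median change of lost tiles was -25.6 points in the clusters, with an interquartile range of -34.9 to -18.7, against -31.0 in the rest. Gains were called for 3 tiles (0.326%), against 7 in the rest (0.129%) and 0.166% of all autosomal tiles tested. At 90% or more at the start, 33 of 274 tiles of the clusters were called as lost (12.0%), against 279 of 981 in the rest (28.4%). At 80 to 90% they were 52 of 208 (25%), against 513 of 1230 (41.7%), and at 60 to 80% they were 32 of 191 (16.8%), against 679 of 1347 (50.4%). Over all autosomes the shares were 20.9% at 90% or more, 29.1% at 80 to 90% and 36.499% at 60 to 80%, so the gap was narrower there than to the rest of chromosome 19. In the classes from 10 to 60% the share lost was between 33.3% and 50% in the clusters, against 50.5% to 66.0% in the rest and 53.3% to 64.1% over all autosomes.

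The deepest falls were in the fourth cluster. The tiles described from here on were picked by this fit, so their p-values describe them and support nothing further. The levels of single libraries are given in passage order, and distances are to promoters placed with 40% or more of their CpGs listed, a rule chosen after the data were seen. The tile chr19:56600001-56601000, with 4 CpGs and 36 to 119 reads per library, had levels of 94.1, 83.7, 87.5, 80.6, 87.1, 48.3, 2.97 and 3.16% (fitted change -90.7 points, adjusted p = 8.15e-08). It stayed above 80% through passage 13, was near 48% at passage 17 and close to unmethylated at passages 27 and 28. It lies 21.9 kb from the promoter placed for the noncoding LINC01864 and 31.6 kb from that of ZNF787. The tile chr19:55526001-55527000, with 9 CpGs, had 76.1, 75.5, 76.9, 59.6, 57.4, 7.22, 5.88 and 6.00% (fitted change -75.4 points, adjusted p = 2.94e-07). Its fall was complete by passage 17. The tile chr19:56103001-56104000, between the placed promoters of ZNF579 and ZNF865, had 86.5, 86.3, 95.3, 81.0, 91.6, 80.5, 37.5 and 14.2% (fitted change -66.0 points, adjusted p = 3.13e-06). It was still above 80% at passage 17, so these 3 tiles lost their methylation at different passages.

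In the second cluster 2 tiles with a gap of 2 kb between them took different courses. The tile chr19:37501001-37502000 had 100, 96.7, 100, 92.3, 100, 100, 60.7 and 52.6% on 3 CpGs (fitted change -45.1 points, adjusted p = 5.4e-05). The tile chr19:37498001-37499000 had 95.1, 100, 96.2, 94.9, 100, 90.4, 97.6 and 95.4% on 6 CpGs (fitted change -0.369 points, adjusted p = 0.938). Both stand between the placed promoters of ZNF345 and ZNF420. The other deep falls there were chr19:36821001-36822000, with 59.1, 66.0, 57.1, 69.4, 63.5, 73.2, 16.3 and 21.4% (fitted change -40.7 points, adjusted p = 0.00517), and chr19:36572001-36573000, with 96.1, 97.0, 92.5, 81.0, 88.9, 85.7, 58.3 and 59.1% (fitted change -37.7 points, adjusted p = 0.000129). The first of these was not below its start mean of 60.7% at passages 11, 13 and 17, and without passage 27 its adjusted p was 0.0974. Another tile of the cluster that stayed high, chr19:37773001-37774000, had between 89.0% and 97.1% in the 8 libraries on 11 CpGs. It stands in a run of highly methylated tiles between the placed promoters of ZNF420 and ZNF570.

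In the first cluster the deepest fall was at chr19:20480001-20481000, with 75, 53.4, 82.6, 68.9, 64.2, 63.2, 25.4 and 17.8% (fitted change -52.6 points, adjusted p = 6.36e-05). The tile chr19:20935001-20936000 had 83.5, 94.5, 83.9, 83.3, 78.3, 88.1, 51.0 and 60.9% (fitted change -30.8 points, adjusted p = 0.00291; 0.0533 without passage 27). The tile chr19:22979001-22980000 had 90.4, 86.5, 96.7, 100, 71.7, 62.5, 63.4 and 57.1% (fitted change -34.3 points, adjusted p = 0.00468), and was lower from passage 13 on. The best kept tiles of this cluster had levels between 90.9% and 100% at chr19:20354001-20355000 and between 96.7% and 100% at chr19:21657001-21658000. The 1 call of the third cluster, chr19:44371001-44372000, lies 39.5 kb from the placed promoter of ZNF283 and had 68.5, 58.8, 72.0, 65.4, 67.9, 58.8, 44.4 and 47.9% (fitted change -21.4 points, adjusted p = 0.0427). That call was lost without any 1 of 6 of the libraries, with an adjusted p of up to 0.153. The best kept tile of the third cluster, chr19:44737001-44738000, had between 71.2% and 100%. In the fourth, chr19:58718001-58719000 had between 89.9% and 100%, and chr19:54152001-54153000 between 93.7% and 100%.

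Each of the 3 gains was called only with passage 6 in the fit. The tile chr19:37464001-37465000, with 12 CpGs in the second cluster, had 78.2, 76.5, 83.3, 89.5, 86.1, 91.8, 90.6 and 89.8% (fitted change 12.1 points, adjusted p = 0.0102). Its level was already near 89% at passage 11. The tile chr19:57690001-57691000 in the fourth cluster had 74.1, 71.4, 89.5, 80, 78.8, 77.3, 87.3 and 96.4% on 3 CpGs (fitted change 17.2 points, adjusted p = 0.0249; 0.258 without passage 28). The tile chr19:54249001-54250000 had 0, 6.67, 3.33, 0, 3.03, 3.23, 2.44 and 26.8% on 3 CpGs (fitted change 14.2 points, adjusted p = 0.033), so only passage 28 stood apart. Without passage 6 the adjusted p of the 3 tiles lay between 0.0652 and 0.118. Without passage 28 only 1 gain was called in the clusters.

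Along the clusters the difference from the rest was uneven. In windows of 500 kb with 10 or more tiles, the late level minus that of the rest at equal start was above 0 in 26 of 28 windows. It lay between 6.98 and 15.7 points in the 9 windows of the first cluster and between 6.25 and 10.5 points in the 4 of the second. In the fourth cluster it ranged from -0.521 to 10.01 points over 14 windows. The lowest stood side by side, at -0.140 points in chr19:55500001-56000000 with 150 tiles, -0.521 in chr19:56000001-56500000 with 80 tiles and 1.56 in chr19:56500001-57000000 with 48 tiles. The 9 genes whose promoters were placed in the window of -0.140 points with the same 40% rule include none with a zinc finger symbol, among them PPP1R12C, a subunit of myosin phosphatase, SYT5, a synaptotagmin, and RPL28, a ribosomal protein. The next window, chr19:57000001-57500000, stood at 9.82 points with 5 zinc finger genes among the 6 placed. The number of placed zinc finger promoters did not order the windows. Zinc finger genes are 8 of the 11 placed genes in the window of 1.56 points and 4 of 8 in that of -0.521 points. The window of 15.7 points in the first cluster had 0 placed zinc finger genes. These counts cover only promoters that could be placed and do not give the number of zinc finger genes in a window. These windows were singled out after their values were seen and were not tested.

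**Figure D4:**
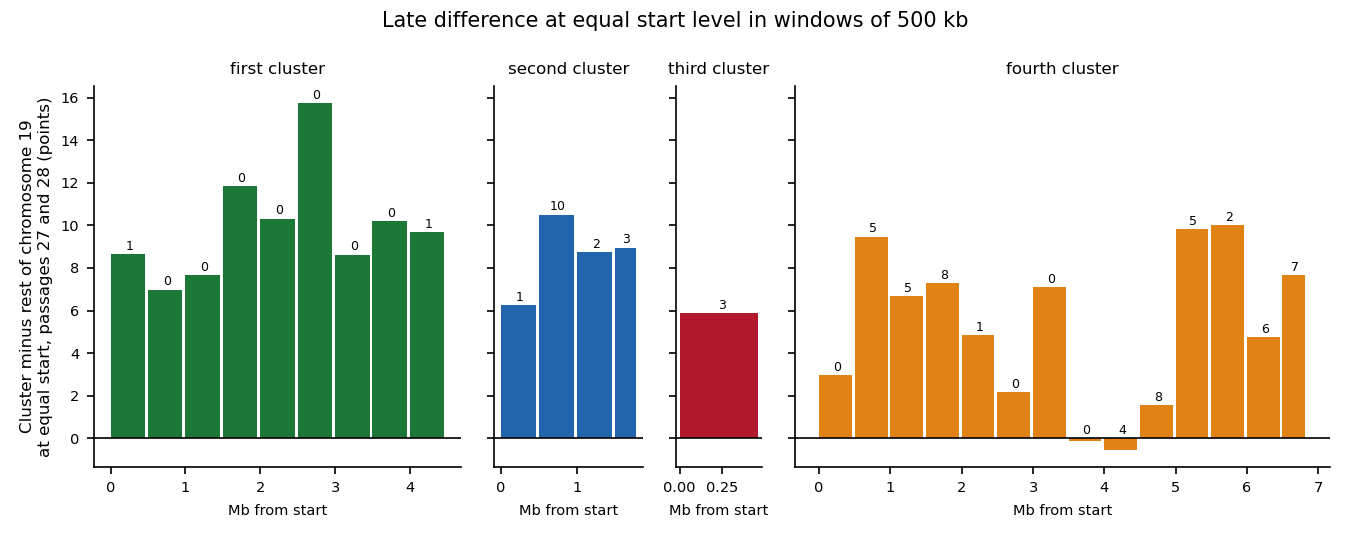
Late level of the clusters minus that of the rest of chromosome 19 at equal start (points) in windows of 500 kb with 10 or more tiles, by distance from the start of each cluster (Mb); the number on each bar counts the zinc finger genes whose promoter was placed there with 40% or more of its CpGs listed. All bars of the first 3 clusters are above 0, and 2 neighbouring bars of the fourth are below it. The counts cover placed promoters only and do not give the number of zinc finger genes in a window.

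Most zinc finger promoters of the clusters that could be placed had little or no methylation in any library. Placement needs 8 or more CpGs, 60% or more of them listed, so promoters with fewer are not covered. In the first cluster only ZNF682 and ZNF726 had a level. Of the 1917 RefSeq promoters of chromosome 19, 304 were placed at 1 position, and each followed its neighbour in RefSeq order. In the clusters this gave 38 promoter loci with 3 or more measured CpGs, 23 of zinc finger genes and 15 of other genes. Of the 23, 18 started under 2%, among them ZNF160, ZNF227, ZNF570, ZNF587 and ZNF606, and none of these had a late mean over 3.13%. The ZNF570 promoter printed above had no methylated read in any library on 71 to 218 reads, and the Wilson 95% interval of its late reads reaches 1.33%. Among the other 15, 13 also started under 2%. At equal start, the slope of zinc finger minus other promoters was 0.0026 ± 0.0143 points per passage (SE over 8 libraries; exact permutation p = 0.864), over 18 and 13 loci. All of these started under 10%, so that the comparison covers only promoters with little methylation.

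The 5 zinc finger promoters that started at 10% or more behaved differently from one another. ZNF540, whose promoter window overlaps that of ZNF571-AS1, had 97.7, 96.1, 98.3, 93.8, 94.3, 98.6, 93.3 and 95.7% on the 5 CpGs in capitals. ZNF835 had 94.1, 98.0, 93.2, 95.1, 86.8, 89.3, 100 and 86.2% on 4 CpGs. Their late means were 94.5% and 93.1%, against start means of 97.4% ± 1.16 and 95.1% ± 2.52 (SD, n = 3 each). The ZNF528-AS1 promoter had 96.0, 94.2, 92, 98.1, 89.3, 77.0, 64.0 and 47.0% on 5 CpGs, with a late mean of 55.5%, against 94.1% ± 2.02 at the start (SD, n = 3). It was lower in each later library from passage 13 on, and each of its 5 CpGs was at 80% or less in the late reads, against 87.5% or more in the early ones. The tile that holds it was called as lost (fitted change -25.6 points, adjusted p = 0.000521). ZNF880 had 43.2, 34.3, 55.3, 42.4, 47.9, 35, 46.9 and 38.7% on 9 CpGs, with late and start means of 42.8% and 44.26% ± 10.5 (SD, n = 3) and no order by passage. ZNF726 had 6.45, 14.8, 12.9, 22.2, 8.42, 9.09, 15.2 and 8.33% on 7 CpGs. The tiles of the other 4 promoters than ZNF528-AS1 passed the test in neither direction. ZNF540, ZNF835, ZNF880 and ZNF726 all encode C2H2 zinc finger proteins. ZNF528-AS1 is a noncoding transcript antisense to ZNF528, counted here by its symbol. With the 40% rule the promoter window placed for ZNF528 overlaps that of ZNF528-AS1, and the joined window has the same 5 CpGs and levels.

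**Figure D5:**
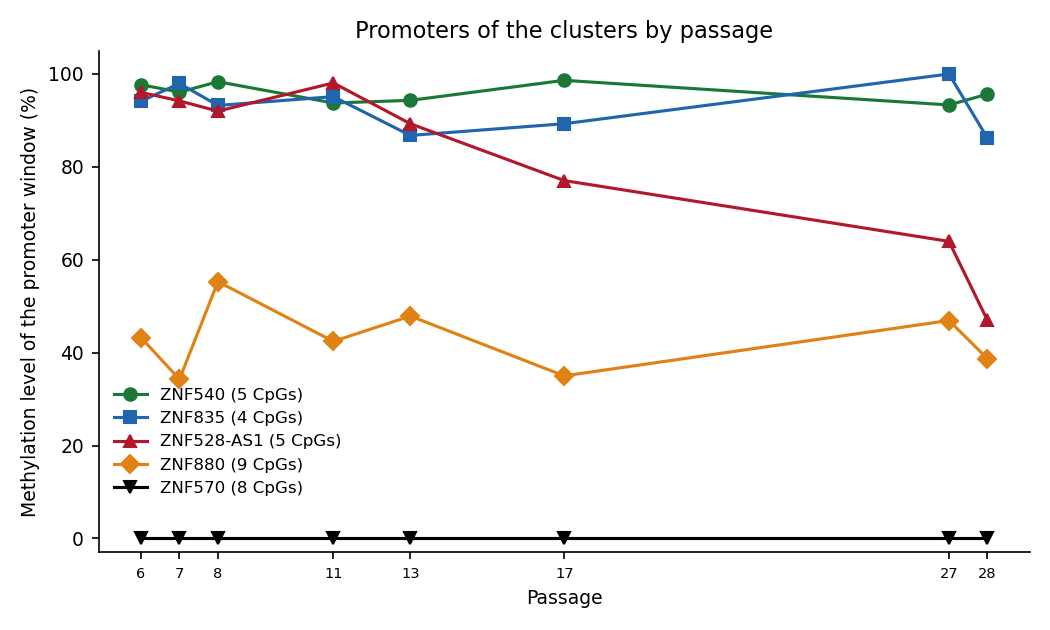
Methylation level (%) of the CpGs in capitals in the 5 promoters printed above, by passage; each point is 1 library. ZNF528-AS1 falls to 47.0% at passage 28, while ZNF540 and ZNF835 stay above 86% and ZNF570 at 0.

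Of the other genes, the promoter of USP29, a deubiquitinase gene of the imprinted PEG3 domain placed outside the windows left out, had 86.8, 90.3, 87.8, 83.8, 98.6, 82.0, 77.1 and 72.7%. Its tile was called as lost at the edge of the rule (fitted change -10.01 points, adjusted p = 0.0371). The noncoding LOC124904707 had between 64.8% and 76.5%. With the 40% rule, 80 loci had a level and 40 of 47 zinc finger loci started under 2%. The slope of zinc finger minus other promoters was then 0.0226 points per passage (exact permutation p = 0.0201, n = 8), over 41 and 31 loci in shared start bins. That value rests on AURKC and on CLIP3, a gene of a cytoplasmic linker protein whose promoter had a late mean of 3.64%, against a start mean of 11.1%. Without them the slope was 0.0039 points per passage, with no test. The rule added ZNF667, a zinc finger gene, with 48.2, 46.2, 38.2, 36.7, 31.8, 39.0, 30.8 and 31.3%, whose tile did not pass the test (fitted change -14.0 points, adjusted p = 0.0582). It also added the neighbouring ZNF667-AS1, with 44.8, 55.7, 30.9, 33.7, 38.6, 44.4, 40.8 and 29%. The tile that holds the measured CpGs of ZNF667-AS1 did not pass either (fitted change -4.83 points, adjusted p = 0.492). AURKC, which encodes a kinase of meiosis, had 3.604, 10.2 and 12.0% at passages 6, 7 and 8 and no methylated read from passage 11 on.

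The clusters were ahead of the rest in tiles of every CpG density. The slope of the difference at equal start was 0.203 ± 0.0195 points per passage in tiles of fewer than 10 listed CpGs, 0.304 ± 0.00585 in those of 10 to 19, 0.251 ± 0.0219 in those of 20 to 34 and 0.207 ± 0.0245 in those of 35 or more (SE over 8 libraries each; adjusted exact permutation p of 0.000174 or less). The difference in tiles of 20 or more listed CpGs minus that in sparser tiles had a slope of -0.0214 ± 0.0172 points per passage (SE over 8 libraries; exact permutation p = 0.261). Within the clusters, tiles of 20 or more listed CpGs ended at 38.8%, against 37.8% in sparser tiles at equal start, the slope of this difference being 0.0507 ± 0.012 points per passage (SE over 8 libraries; exact permutation p = 0.00575). Without passages 27 and 28, r of that difference was 0.784 (exact permutation p = 0.0667, n = 6).

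A CpG at a fixed place of the finger repeat would recur every 84 bases, the length of 1 C2H2 finger with its linker. By the positions of the listed CpGs alone, 4 of the 1202 tiles of the clusters carried such a spacing, against 3 of 7035 in the rest. Spacings of 76, 80, 88 and 92 bases marked 0, 0, 1 and 0 tiles of the clusters, and 2, 3, 2 and 4 of the rest. The 4 tiles had a mean level of 90.8, 91.2, 96.0, 91.7, 89.1, 90.1, 86.2 and 91.3%, and the slope of their difference from the other tiles of the clusters at equal start was 0.105 ± 0.111 points per passage (SE over 8 libraries; exact permutation p = 0.395). With 5 or more CpGs per tile, on at most these 4 tiles, it was 0.134 points per passage (exact permutation p = 0.0173, n = 8 libraries). Tiles with this spacing were thus too few to describe the finger repeats of the clusters.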

How the data were processed

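Each deposited file lists single CpGs with their methylated and total reads, on hg19 as the submitters' processing notes name it. The deposited score is 1000 times the methylated share, rounded, and was not used further. The assay is RRBS, per the labels' protocols. For the aligner, the methylation caller, any coverage filter and any duplicate removal, names and settings were not given in the sources used here. Intervals cover counting error, without any duplicate molecules.

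Levels, slopes (least squares on passage) and matched differences were computed in Python 3.11.15 with numpy 2.4.6. Exact permutation tests are two-sided over all 40320 orders of the 8 libraries, and families were adjusted by Benjamini-Hochberg over the 6 mean levels, the 4 clusters, the 3 pairs of clusters, the 7 start classes and the 4 density classes. Single tiles of all autosomes were tested in R 4.3.3 with a quasi-binomial logistic model of their read counts against passage. Dispersions were moderated with limma 3.58.1 and held at 1 or more, and F test p-values were adjusted by Benjamini-Hochberg over all tiles tested. The procedures were tested on simulated data. Positions count from 1.

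Promoters were placed where 8 or more CpGs of a RefSeq sequence met listed CpGs, 90% or more of the listed CpGs of the window were in the sequence and 60% or more of its CpGs were listed (40% in an alternative added after the data were seen), at 1 place on the chromosome. Overlapping windows were joined. Zinc finger genes were taken by symbol (ZNF, ZFP, ZSCAN, ZKSCAN, ZIM, ZIK or HKR1), which also takes noncoding transcripts named after them, such as ZNF528-AS1 and ZNF582-DT.

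Named tiles are, per cluster, the 3 called tiles with the largest fall and the 2 with the highest late level among those of 5 or more CpGs that started at 80% or more, and the called gains. Named promoters are the 5 zinc finger promoters with the largest fall and the 5 with the highest late level. The largest falls include ZNF579 and ZNF135, whose late and start means were all under 1%. Other tiles, promoters and windows were chosen after their values were seen. Members and lists were chosen with earlier results of these data known. Alternatives changed the read and CpG minimums, the matching, the test, the thresholds and the libraries. Those of the pairs of clusters, and the promoters without AURKC and CLIP3, were added after the data were seen.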

Additional observations from a re-analysis of the deposited data

How the results depend on the processing

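No paired analysis was possible because there is only 1 library per passage. Of 279 alternative values of the comparisons, 245 kept their side of the threshold or, for counts and shares, stayed within 1.5 times of the value reported. Of these, 9 have the other sign, all in comparisons not past the threshold (the 84-base spacing, the first minus the second cluster, and zinc finger minus other promoters). Depth limits the strictest settings. With 20 reads in every library only 4 tiles of the clusters were left (1 in the second cluster, 3 in the fourth): the slope of the difference from the rest at equal start was 0.0904 points per passage, 0.320 in the second cluster and for tiles starting at 90% or more, -0.0242 in the fourth cluster, -0.0541 for tiles under 10% and 0.00573 for those at 10 to 20%, with 1 loss, 0 gains and 100% of highly methylated tiles kept. With 10 reads 339 tiles were left: the third cluster gave 0.0356, the second minus the fourth (added after the data were seen) 0.0957 and tiles at 10 to 20% 0.129 points per passage, with 40 losses, 0 gains and 91.2% kept. Depth and minimums also moved slopes by over 1.5 times with no loss of the call: 0.383 for tiles at 90% or more with 10 reads, 0.442 for tiles at 80 to 90% with 5 or more CpGs, and 0.535 in the second cluster over single CpGs. With 5 or more CpGs per tile, 681 tiles gave 0.185 for tiles at 20 to 40%, with 95 losses, 1 gain and 74.7% kept. The 84-base spacing, on at most 4 of these tiles, then gave 0.134 and passed the threshold. Losses numbered 118 of 1202 tiles with limma on logit levels, against 185 of 920, and 47 with passages 6 to 17 alone. Gains numbered 0 with limma and 0 at a minimum change of 20 points. The share kept was 76.3% at a level of 70% and 62.0% at 90%. Leaving out each library in turn gave 0.0141 to 0.0218 points per passage for tiles under 10%, 0.0374 to 0.130 for those at 10 to 20%, 128 to 189 losses and 0 to 3 gains. The looser promoter placement, chosen after the data were seen, gave 0.0226 points per passage for zinc finger minus other promoters (exact permutation p = 0.0201). At 20 reads that value could not be computed. Of 246 alternative values of named tiles, 26 lost the call and 10 have the other sign. Only 1 of the 10 is of a called tile, chr19:36821001-36822000, with 23.003 points over passages 6 to 17. Where tiles or libraries were not left out by the setting itself, the cause was not tested.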
